A study of Strongylocentrotus droebachiensis with 6 samples.

Results

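The hatching enzyme gene (HE) and the transcription factor gene Ets4 were followed through 6 RNA sequencing libraries of sea urchin embryos. They are 2 of the 31261 rows of the count table. Both rows were picked by name, with their normalised read counts in these libraries already known, so their levels and differences are given as a description. HE encodes a secreted zinc metalloprotease of the matrix metalloprotease family. Blastula cells release it to digest the fertilisation envelope, and the embryo then swims free. In sea urchins HE is among the earliest genes that the embryo itself transcribes, and its transcription is known to be brief and over before gastrulation. Ets4 encodes a protein with an ETS DNA-binding domain, which in Strongylocentrotus purpuratus was described as a factor that binds the regulatory DNA of the hatching enzyme gene.

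The embryos were wild-type Strongylocentrotus droebachiensis, the green sea urchin, sampled as polyadenylated RNA at the mesenchyme blastula, 46 hours after fertilisation at 8 °C. Control embryos were intact. Half-size embryos were siblings that grew from single blastomeres, separated at the 2-cell stage (3.5 hours) by a seawater wash free of calcium and magnesium and passage through a needle. For the separation experiment eggs were kept in aminotriazole (ATA, 1 mM), an inhibitor that stops the fertilisation envelope from hardening. The labels list the same ATA, separation time and wash for both groups. They do not say separately whether the intact controls were kept in ATA or washed. The envelope is the structure that the hatching enzyme digests.

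Each group had 3 libraries of 1804336 to 2294541 reads. The columns of the table show the group but no replicate number. Over 11127 rows other than the members, each half-size column deviated from its group mean together with 1 control column (r = 0.76, 0.63 and 0.52, against at most 0.01 for the other combinations). These matches are called pairs A, B and C. They come from the values, and the labels neither give nor deny them. Deviations from a group mean cancel over the columns of the group, so a high r for 1 combination in itself lowers the others. Of 14 marker genes of the mesenchyme blastula, 13 were matched in the table. All 13 were above 0 in every library, and only ARS, an arylsulfatase gene of the aboral ectoderm, had a mean count under 10.

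The question was whether HE and Ets4 vary together over these libraries. They did in broad order, but not within every pair. Both were low in control A and high in half-size B and half-size C. Ets4 had more counts in half-size than in control embryos in all 3 pairs. HE was much higher in half-size than in control embryos in pair C alone, about level in pair B, and scarce in both libraries of pair A.

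HE had normalised read counts of 5.94 in half-size A, 177 in half-size B and 471 in half-size C. In control embryos it had 10.2 in A, 171 in B and 39.96 in C. The highest HE library stood 79.3 times above the lowest, and the 3 control values lay within the range of the half-size values. These values rest on 6, 201 and 389 reads in half-size A, B and C, and on 10, 199 and 40 reads in control A, B and C. Exact Poisson 95% intervals, which cover counting error only, were 2.18 to 12.9 for half-size A and 4.91 to 18.8 for control A. HE was thus detected in pair A, at a depth that could not separate its 2 libraries. In pair C the intervals were 426 to 521 for half-size and 28.5 to 54.4 for control, far apart.

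Within pairs, the half-size to control ratio of HE was 0.581 in pair A (exact 95% interval 0.174 to 1.76), 1.03 in pair B (0.844 to 1.26) and 11.8 in pair C (8.51 to 16.8). The intervals for A and B include equal levels and overlap each other. That of C lies wholly above both. These intervals cover counting error only and leave out variation between libraries, which a single library per group in each pair cannot show. On the log2(value + 1) scale the differences were -0.69, 0.05 and 3.53.

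Ets4 had normalised read counts of 51.5 in half-size A, 145 in half-size B and 142 in half-size C. In control embryos it had 20.5 in A, 89.6 in B and 38.96 in C. The range was narrower than that of HE, with the highest library 7.10 times the lowest. Control B lay above half-size A, so the groups overlapped. Half-size to control ratios were 2.52 in pair A (exact 95% interval 1.48 to 4.45), 1.62 in pair B (1.26 to 2.09) and 3.64 in pair C (2.51 to 5.37). Each interval lies above equal levels, for counting error alone.

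**Figure D1:**
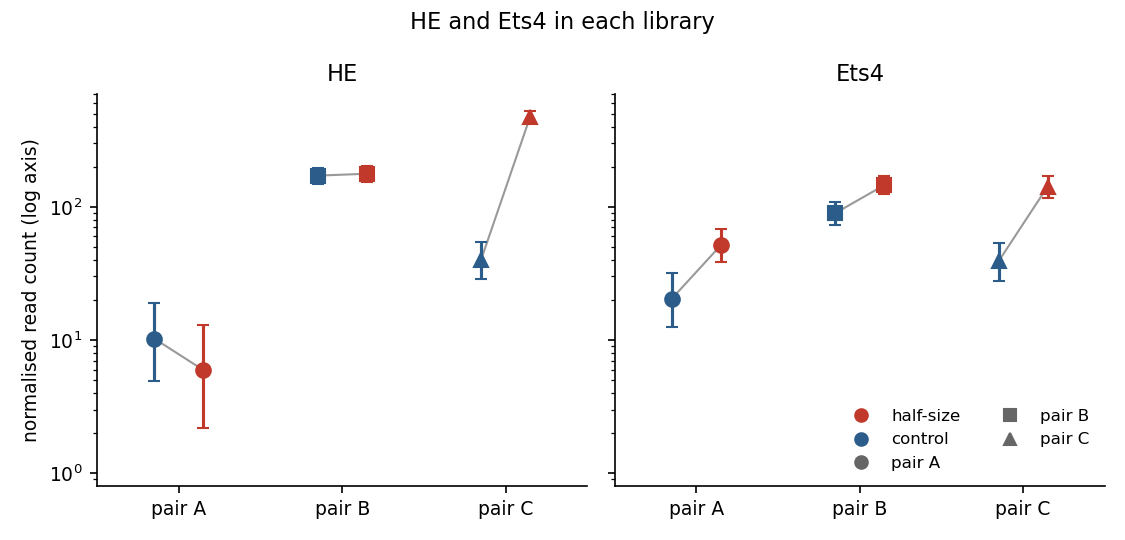
Normalised read counts (log axis) of HE and Ets4 in control (blue) and half-size (red) libraries of pairs A, B and C; bars are exact Poisson 95% intervals and grey lines join the libraries of a pair. Ets4 is higher in half-size embryos in all 3 pairs, whereas HE runs from 5.94 to 471 and is clearly higher in half-size embryos in pair C only.

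Averaged over groups, HE reached 218 ± 235 normalised counts in the half-size libraries, compared with 73.9 ± 85.8 in the controls (SD, n = 3 for both). The corresponding values of Ets4 were 113 ± 53.1 and 49.7 ± 35.8 (SD, n = 3 for both). The log2 difference, half-size minus control, was 0.96 ± 1.41 for HE and 1.27 ± 0.54 for Ets4 (SE, limma-trend without pairs). Neither gene passed the test across 18016 rows (adjusted p = 0.99998 each), in which 0% of rows did. With the pair as a block the differences kept their size, with SE 0.60 for HE and 0.23 for Ets4. The blocked limma-trend fit called 0.0167% of rows and neither member (adjusted p = 0.936 for HE and 0.155 for Ets4). Blocked edgeR called 0.097% and blocked DESeq2 0.219% of rows, again without HE or Ets4 (adjusted p = 0.905 and 0.99999 for HE, adjusted p = 0.143 and 0.117 for Ets4). In the authors' deposited table, where 0.0167% of rows had an adjusted p under 0.05, HE had a log2 fold change of 1.56 (SE 1.56) and Ets4 of 1.18 (SE 0.54), each with an adjusted p of 0.99993.

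The HE difference depended on single libraries. Without half-size C it turned to -0.29, without control A it was -0.00800, without half-size B 0.41, without control B 1.96, and without half-size A it was 2.75. Ets4 stayed between 0.78 (without control A) and 1.82 (without control B) over the same 6 omissions. None of these leave-outs brought either gene past the threshold (limma-trend adjusted p from 0.99924 to 0.99994).

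The sources of variation of the genes were unlike. Of the sum of squares of HE over the 6 libraries, pairs took 78.1%, groups 4.69% and the rest 17.2%. For Ets4 pairs took 54.2%, groups 40.4% and the rest 5.46%. Across the 11129 rows whose mean count reached 10 the medians were 65.5%, 6.45% and 18.8%. The pairs were matched on these rows, HE and Ets4 left out, so the median pair share follows in part from the matching. HE ranked 54th of those rows by the SD of its log2 values (2.43) and Ets4 411th (1.10), where the median row had 0.36. A higher half-size value in all 3 pairs, as for Ets4, occurred in 1565 of the 11129 rows (14.1%). With the cut set at the smallest Ets4 difference (0.69), 27 of the 11129 rows reached it in every pair. Ets4 is among them by construction, since its own values set the cut.

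Over the 6 libraries log2 values of HE and Ets4 gave Pearson r = 0.84 and Spearman rho = 0.77. No p is attached, because libraries of a pair share their deviations and are not 6 independent points. Among 15 comparisons between libraries, the genes had the same order in 12. All 3 comparisons among control libraries had the same order, as did 2 of 3 among half-size libraries. Of the 3 comparisons within a pair, 2 had the same order. In pair A the half-size library had the higher Ets4 count, while the HE values, from 6 and 10 reads, gave no order beyond counting error. In pair B the HE ratio of 1.03 (exact 95% interval 0.844 to 1.26) likewise gave none. Only in pair C was the order of both genes beyond counting error. Half-size A had the lowest HE value and the third lowest of Ets4, and r was 0.96 without it. Leaving out pair A, whose libraries lie farthest from the median of HE, gave 0.91. With values centred within pairs r was 0.66, and with values centred within groups 0.93. The r within pairs rests on 3 differences per gene, and pair C had the largest for both (3.53 for HE and 1.84 for Ets4). In pair A the 2 differences had opposite signs (-0.69 for HE and 1.29 for Ets4). Centring within groups leaves the differences between pairs in the values.

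**Figure D2:**
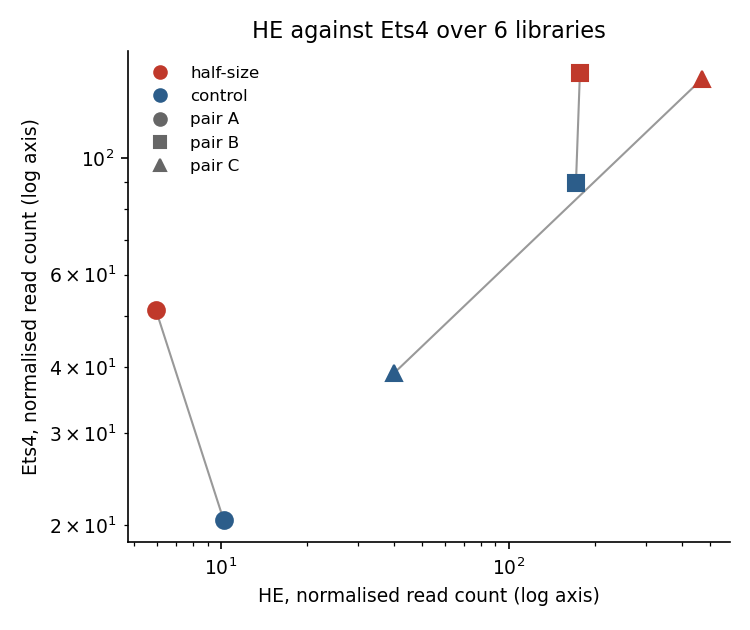
Normalised read counts of Ets4 against HE (both log axes) in 6 libraries, coloured by group, with a marker for each pair and a grey line joining its libraries. From control to half-size Ets4 goes up in every pair, and HE goes up clearly in pair C only; the leftward slope of pair A rests on 6 and 10 HE reads and lies within counting error.

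An r of this size was not rare. Of 11128 rows compared, 6.74% had an r to HE at least as high as that of Ets4, and 3.61% had an r to Ets4 at least as high as that of HE. As many as 102 rows had r over 0.95 with HE and 111 rows had r under -0.95. For Ets4 these counts were 43 and 13.

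The named gene most like HE was duox1, a dual oxidase gene (r = 0.98). It was followed by the homeobox gene Not (0.97), the egg bindin receptor gene ebr1 (0.96), the homeobox gene eve (0.95) and the signalling ligand gene Wnt8 (0.94). All 5 had a far narrower range than HE, and their order of libraries was close to that of HE without matching it in full. The normalised counts of duox1 were 846, 1302 and 1342 in half-size A, B and C and 878, 1339 and 1066 in the controls, a 1.59-fold range. Those of eve were 703, 1253 and 1292 in half-size and 589, 1233 and 804 in control libraries, a 2.19-fold range. Both genes were low in pair A, high in both libraries of pair B, and higher in half-size than control in pair C.

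The named gene least like HE was erg, itself an ETS-family factor gene, known from mesoderm development (r = -0.99, rank 11127 of 11128 rows). Its normalised counts were 769 in half-size A, 357 in half-size B and 308 in half-size C, and 617, 377 and 499 in control A, B and C. Thus erg was highest in the libraries of pair A, where HE was scarce, and lowest in half-size C, where HE was highest. Next were SM37, a spicule matrix gene (-0.97), and Sp-Smad2/3, which encodes a transducer of Nodal and activin signals (-0.96).

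Genes of later differentiation stood opposite to HE as a group. The list held 29 symbols for skeletogenic, gut and aboral ectoderm genes, of which 14 were matched and 12 had a mean of at least 10. All 12 had a negative r to HE, between -0.97 and -0.58 with a median of -0.94. Over all 11128 rows 5550 were negative to HE, and the median was 0.00. To Ets4 all 12 were negative as well, but less so, between -0.76 and -0.41 with a median of -0.68. Of all rows, 5615 were negative to Ets4. Most of the 12 are genes of skeletogenic cells, and the list was chosen with earlier results of these data known. Without pair A, 11 of 12 stayed negative to HE. The summed level of the 14 matched genes was 21341, 8756 and 8388 in half-size A, B and C, and 14658, 8540 and 10320 in control A, B and C. The highest sums belonged to the pair in which HE was scarce. In pair C the sum was lower in half-size embryos, where HE was higher. In pair A it was higher in half-size embryos, and the HE libraries could not be ordered there. The part of these genes in the HE values was not tested, and fewer cells of a type cannot be told apart from less RNA per cell in whole embryos.

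Most single genes of that list were likewise highest in the libraries of pair A, and 3 skeletogenic ones are given here. Exceptions were spec2d, with 29.7 normalised counts in control A and 34.97 in control C, and ARS, with 3.07 and 5.00. A further matched gene of the list, cyiiib, had 0 normalised counts in every library. msp130, a cell surface protein of skeletogenic cells, had 5464, 2110 and 2099 normalised counts in half-size A, B and C against 3962, 2060 and 2955 in controls. PM27, a spicule matrix protein gene, had 996, 290 and 245 against 592, 292 and 396. Alx1, the homeobox regulator of skeletogenic fate, had 583, 268 and 247 against 460, 218 and 308. For all 3 genes the half-size library was the higher one in pair A and the lower one in pair C. SPEC1 of the same list was higher in half-size C than in control C (2288 against 2171). No gene of the list passed limma-trend with or without the block, and its median difference was 0.02 where that of all rows was -0.000467.

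**Figure D3:**
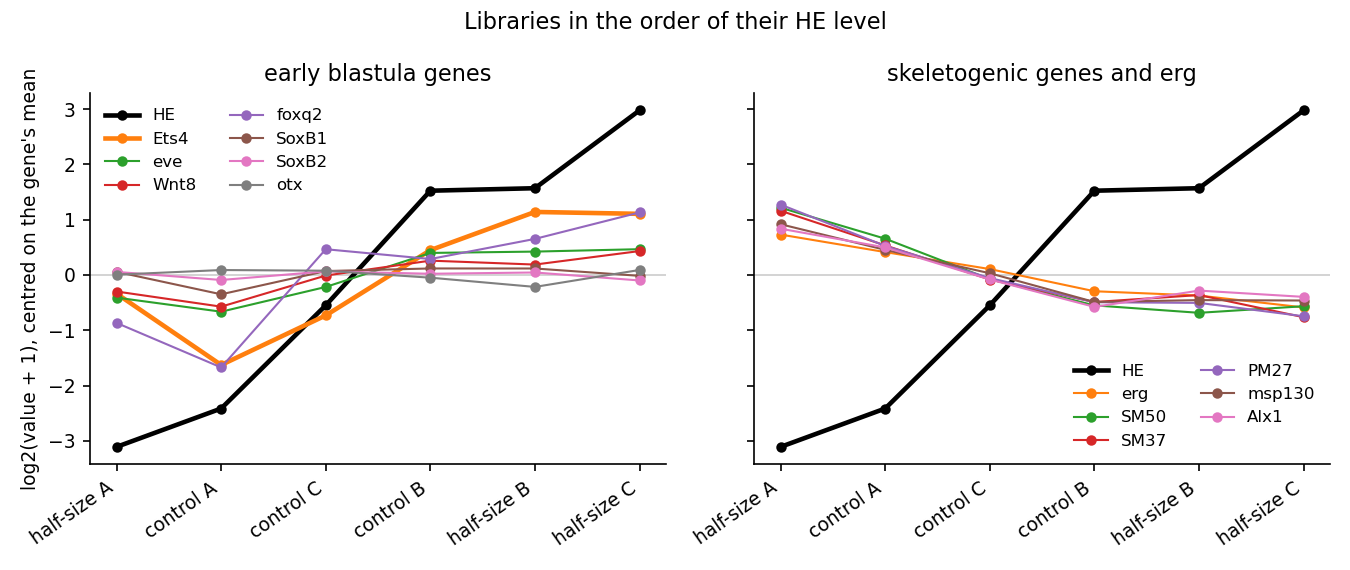
Log2(value + 1) of single genes, centred on each gene's mean, in 6 libraries ordered from the lowest to the highest HE level. The left panel has the early blastula genes with a mean count of at least 10: Ets4, eve, Wnt8 and foxq2 are higher at the high end of HE, whereas SoxB1, SoxB2 and otx stay nearly flat. On the right erg, Alx1 and spicule genes are lower at the high end of HE.

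Genes active in the cleavage and early blastula embryo were a mixed group. Of 19 symbols 9 were matched, and 8 entered the fit, HE and Ets4 among them. PMAR1, a repressor gene of the earliest skeletogenic lineage, did not reach the mean of 1, with at most 1.76 normalised counts. Leaving HE and Ets4 aside, 4 of 6 members had a positive r to HE, where 5578 of all 11128 rows did. Besides eve and Wnt8, foxq2, a forkhead gene of the animal pole, had r = 0.88 with HE and 0.83 with Ets4. Its normalised counts were 16.8, 50.2 and 70.3 in half-size A, B and C and 9.21, 38.8 and 43.96 in controls. SoxB1, an HMG-box factor gene of the early embryo, had r = 0.44 with HE, and its levels of 3268 to 4520 spanned only a 1.38-fold range. The related SoxB2 (-0.20) and the homeobox gene otx (-0.29) did not follow HE. No member passed limma-trend with or without the block. Of the 8 in the fit, 7 had a log2 difference above 0 (median 0.27), compared with 8998 of all 18016 rows. These 8 include HE and Ets4, which were picked with their values known.

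ETS-family genes did not behave alike. Besides Ets4, the rows ets1, erg and Elk were matched out of 20 symbols. Elk encodes a factor of the ternary complex type and was among the 5 named genes most like Ets4 (r = 0.93). Its normalised counts were 329, 403 and 488 in half-size A, B and C and 229, 332 and 240 in controls, so that half-size exceeded control in every pair. ets1, a regulator of mesenchyme cells, was sparse, with 14.9, 22.0 and 27.9 against 15.3, 32.7 and 15.98, and had r = 0.75 with Ets4 and 0.87 with HE. The erg row had r = -0.79 with Ets4.

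The named genes most like Ets4 were foxx and BMP1, neither of which was among the 5 most like HE. foxx, a forkhead gene, had r = 0.99 with Ets4 and 0.86 with HE. Its normalised counts of 31.7, 77.5 and 104 in half-size and 12.3, 53.4 and 28.97 in control A, B and C gave log2 differences of 1.30, 0.53 and 1.81. The Ets4 differences were 1.29, 0.69 and 1.84. BMP1, a tolloid-type metalloprotease gene, followed at r = 0.97 with Ets4 and 0.74 with HE. It had 634, 939 and 840 normalised counts in half-size A, B and C and 469, 745 and 490 in controls. Next were eve (0.95) and SpZ12-1, a zinc finger repressor gene (0.93, with 10.99 to 24.6 normalised counts). In foxx, BMP1, eve, SpZ12-1 and Elk, as in Ets4, each half-size library exceeded its control. Of the 11129 rows with a mean of at least 10, 1565 (14.1%) did so. The named genes were picked for their likeness to Ets4 over the same libraries, so the shared direction follows in part from that choice. None of them passed limma-trend with or without the block.

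The genes least like Ets4 were the growth factor gene FGF (r = -0.97), Hes, a repressor gene of the Hairy and Enhancer of split family (-0.96), and dri, an ARID-family factor gene (-0.96). All 3 had fewer counts in half-size than in control embryos in every pair, as did 1372 of the 11129 rows with a mean of at least 10. They were picked for a low r to Ets4, which was higher in half-size embryos in every pair. Their direction thus follows in part from that choice. dri was lower in half-size embryos in blocked limma-trend (adjusted p = 0.0469), just under the threshold, in a fit that called 0.0167% of rows. That fit takes the pairs, which were read from the values, as known. The log2 difference of dri was -1.20 in pair A, -1.05 in B and -1.37 in C, and dri did not pass without the block. FGF and Hes passed neither fit. FGF differed by -0.60, -0.26 and -1.10 (log2) in pairs A, B and C, and Hes by -0.51, -0.40 and -0.51. To HE the same genes had r of -0.75, -0.67 and -0.67.

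Among proteases, HE, BMP1, MMP14 and MMP16 were matched out of 33 symbols of metalloproteases and their inhibitors. MMP14, a membrane-anchored matrix metalloprotease gene, had r = 0.70 with HE and 0.87 with Ets4. Its log2 differences were 0.25, 0.95 and 1.88 in pairs A, B and C, largest in pair C as for both members. MMP16, of the same subfamily, ran against HE (r = -0.86), with 104, 36.1 and 38.8 normalised counts in half-size and 64.5, 24.1 and 54.95 in control A, B and C. No protease passed limma-trend with or without the block. Levels were compared between libraries and not between genes, since no transcript lengths were used here.

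**Figure D4:**
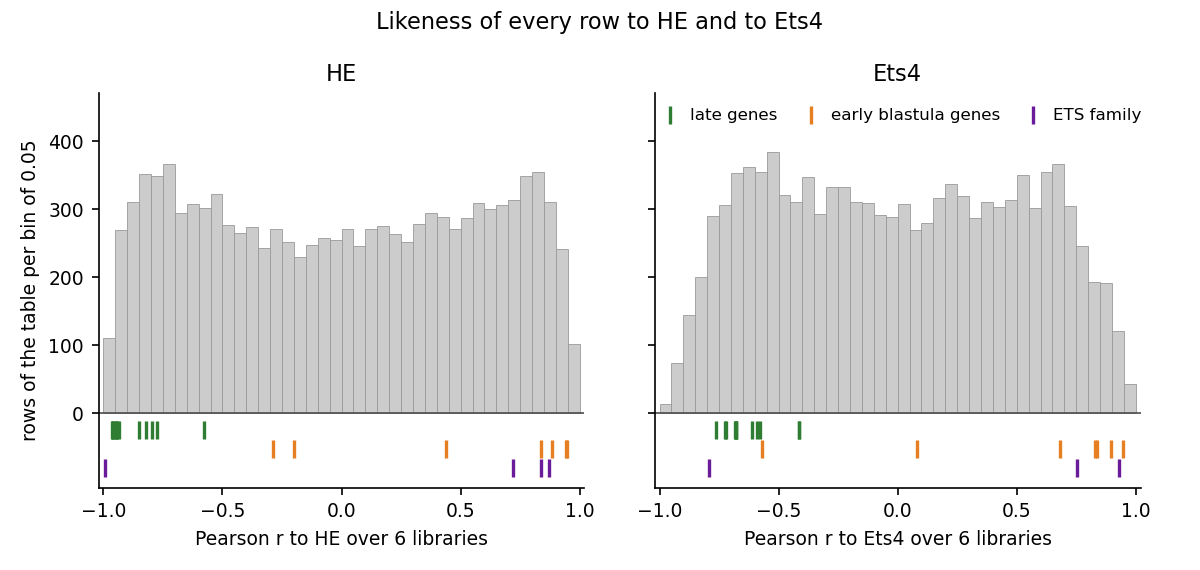
Numbers of rows by Pearson r to HE (left) and to Ets4 (right) over 6 libraries, among 11128 rows, with ticks below for genes of the late differentiation, early blastula and ETS lists. Late genes lie at the negative end for HE, between -0.97 and -0.58, and closer to the middle for Ets4.

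**Figure D5:**
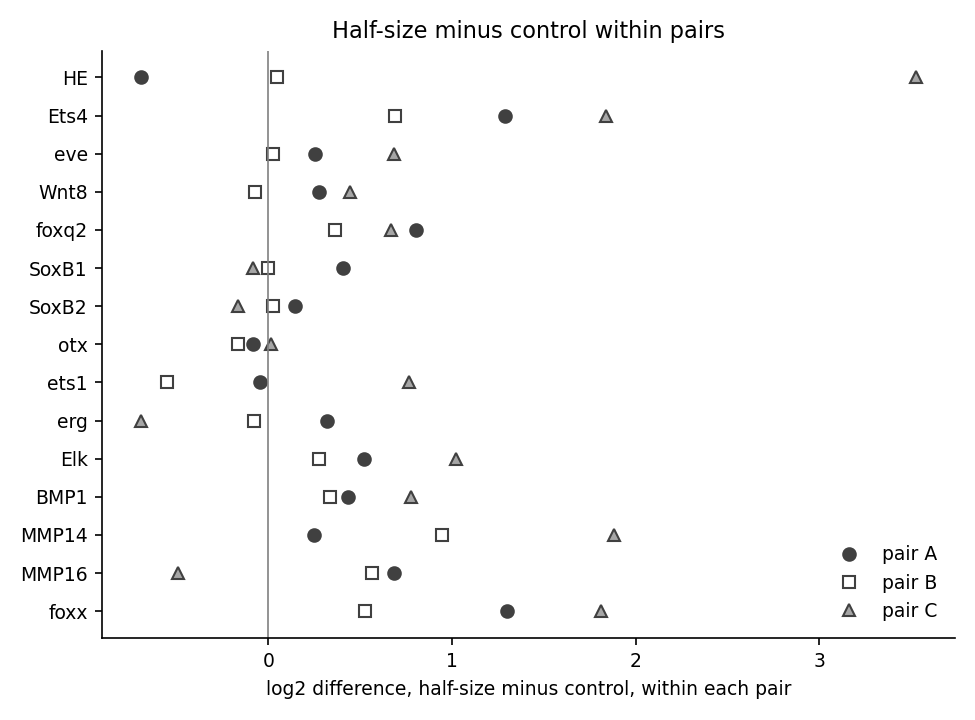
Log2 difference, half-size minus control, within pairs A, B and C for HE, Ets4, early blastula, ETS and protease genes and foxx. Ets4, eve, foxq2, foxx, BMP1, Elk and MMP14 lie above 0 in every pair, eve by only 0.02 in pair B. HE spreads from -0.69 to 3.53.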

How the data were processed

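HE and Ets4, and the gene lists, were chosen with earlier results of these data known. Per the labels' protocols the library kit kept strand. Bowtie2 2.2.2, DESeq and edgeR appear in the submitters' processing notes, without roles. How reads were counted, and whether strand was used, was not given in the sources used here. Per the file headers, rows follow the Spur_4.2 annotation of a related species, S. purpuratus, so reads of diverged genes may be lost and near-identical copies or overlapping genes mixed. The deposited signal values are read counts that the authors divided by a size factor per library; all (100%) were whole multiples of the column's step within 1e-06, and reads were recovered from them. The authors' deposited log2 fold changes, score and p-values are quoted where named.

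The planned test was limma-trend (limma 3.58.1 under R 4.3.3), fitted to log2(value + 1), which understates changes of weak genes, for rows with a mean of at least 1, with Benjamini-Hochberg adjustment over all rows and a threshold of 0.05. It was tested on simulated counts with known group changes and no pair differences, so that check does not cover the pair differences of these libraries. Recovered reads were also tested with limma-voom, edgeR 4.0.16 and DESeq2 1.42.0. The labels do not say whether replicates had different parents, and p-values reflect only how these samples vary. Pairs were the matching of columns with the highest mean correlation (0.64, next 0.21); blocked p-values treat it as known. Likeness is Pearson r of log2(value + 1) among rows whose mean reaches 10. Named genes were HE, Ets4, the lists' matched members, and the 5 highest and 3 lowest named rows by r. No sequences were used here.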

Additional observations from a re-analysis of the deposited data

How the results depend on the processing

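Limma-trend called 0 rows, with 242 rows at an unadjusted p below 0.05. Calls also numbered 0 with edgeR (129 such rows), with limma-voom (118), with each pseudocount, filter and scaling tried, and without each library. DESeq2 called 4. The replicate block gave 3 calls by limma-trend, 11 by edgeR and 21 by DESeq2, and in blocked limma-trend 80 without pair A, 0 without pair B and 31 without pair C; the cause was not tested. The HE difference of 0.96 ran from -0.29 to 2.75 without 1 library and was -0.32 in the block without pair C. An omitted library leaves its pair incomplete, which lets pair differences into such values. In the block without pair A both members passed, HE at 1.79 and Ets4 at 1.26, although HE then averaged 0.05 and 3.53; that fit keeps 1 residual degree of freedom a gene and borrows its spread from other rows. In the other 20 settings Ets4 kept its sign and stayed unpassed. The r of 0.84 between HE and Ets4 was 0.66 in the replicate block (centred within pairs), 0.78 to 0.96 without 1 library, and within 0.1 of 0.84 in 15 of 17 settings. Added after the data were examined were list synonyms, list counts without a pair, and r centred by group and pair together (0.76). With synonyms 6 of 10 early blastula genes were positive and 13 of 13 late genes negative to HE. Of all 11128 rows, 5578 were positive and 5550 negative to HE. Depth limits HE in pair A, at 6 and 10 reads.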

Other observations

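VEB4, a gene named for the very early blastula, was singled out after its values were seen and did not follow HE (r = -0.30) or Ets4 (r = -0.05). Its normalised counts were 39.6, 44.9 and 9.70 in half-size A, B and C and 55.3, 29.3 and 3.00 in controls. It was lowest in both libraries of pair C, which held the highest HE library. CBF-A, a CCAAT-binding factor gene also picked after its values were seen, was lowest in half-size C as well, at 46.1 against 90.9 to 152 in the other libraries (r to HE = -0.63).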
